A study of Mus musculus with 2 samples.

Results

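Metallothioneins and antioxidant genes of the NRF2 pathway were described in single liver cells from 2 droplet libraries of mice injured with carbon tetrachloride. The 10 genes, Mt1, Mt2, Slc7a11, Gclm, Gsr, Gpx1, Txnrd1, Prdx1, Srxn1 and Nqo1, were taken by symbol from the 27998 gene rows of the deposited counts, and each symbol was found in both libraries. The rule uses symbols and no measured value. The wild-type library came from C57BL/6 mice. The yap1 library came from C57BL/6 mice with floxed Yap1 alleles and Cre expressed from the Lyz2 locus (yap1flox/flox lyz2cre), which is active in myeloid cells and is not directed at hepatocytes, endothelial cells or lymphocytes. Mice of both genotypes had received 4 doses of carbon tetrachloride, a toxin that is activated in hepatocytes and is used as a model of liver fibrosis, so untreated liver is not part of the comparison. Each library was a sample from 3 mice and held nonparenchymal cells, that is, what is left in the supernatant when hepatocytes are spun down slowly. Values per mouse are not analysed here. With 1 library per genotype no difference below has a replicate check, no test was made, and a difference between the libraries cannot be told apart from a difference between mice or preparations.

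Metallothioneins are small cysteine-rich proteins that bind zinc and copper, and their genes are switched on by the zinc-sensing factor MTF1 at metal response elements, and in liver also by glucocorticoids and inflammatory cytokines. NRF2, encoded by Nfe2l2, is held at a low level by KEAP1 and, when electrophiles or oxidants modify KEAP1, binds antioxidant response elements together with small MAF proteins. Its targets supply glutathione, recycle thioredoxin and peroxiredoxins, and reduce quinones. In liver, carbon tetrachloride is turned into a reactive radical by the enzyme that Cyp2e1 encodes, and glutathione and metallothioneins are among the defences against such damage.

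The libraries held 5269 wild-type and 4731 yap1 barcodes with 30386545 and 34234353 UMIs, molecules counted by their barcode tags. After filtering, 4653 and 3983 cells were kept, with median depths of 4066 and 5285 UMIs, and 5 barcode sequences occurred in both libraries. Cells were placed in classes by fixed marker lists that hold none of the 10 genes. Libraries were compared in the 11 classes that had 50 or more cells in both. These ranged from 63 wild-type and 69 yap1 conventional dendritic cell 2-like cells to 1294 and 919 B cell-like cells. Although the labels name nonparenchymal cells, 135 and 123 hepatocyte-like cells were found, led by Saa1, Saa2, Apoa2, Apoa1 and Apoc3. The monocyte-like class was led by Elane, Prtn3, Ctsg and Mpo, granule genes of early myeloid cells, besides Vcan, F13a1 and Chil3 of its own list. Yap1 itself gave 0 and 0 UMIs in Kupffer cell-like cells and 2 and 2 in monocyte-derived macrophage-like cells. It gave 104 and 67 in sinusoidal endothelial cell-like cells. Which exon is floxed is not stated, and Yap1 was near 0 in the myeloid classes of both libraries, so the gene checks neither the deletion nor the labels. Lyz2, whose locus carries Cre, was at 13646 CPM (UMIs of the gene per 1000000 UMIs of its class and library) in wild-type and 6962 CPM in yap1 monocyte-derived macrophage-like cells.

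The upstream sequences of 4 members are shown first because their known inputs differ: metal for Mt1 and Mt2, NRF2 for Gclm, and amino acid shortage for Slc7a11. Each run holds the 250 bases before the RefSeq transcription start on build GRCm38.p6, 5′ to 3′ on the strand of the gene. For Mt1 (chr8:94178839-94179088, plus strand) and Mt2 (chr8:94172368-94172617, plus strand) capitals mark matches to the core of the metal response element, TGCACNC or TGCGCNC. For Gclm (chr3:122245307-122245556, plus strand) they mark the core of the antioxidant response element, TGACNNNGC, and for Slc7a11 (chr3:50443614-50443863, minus strand) the amino acid response element, TTGCATCA. All motifs were searched on both strands, so a capital run may be the reverse complement.
Mt1: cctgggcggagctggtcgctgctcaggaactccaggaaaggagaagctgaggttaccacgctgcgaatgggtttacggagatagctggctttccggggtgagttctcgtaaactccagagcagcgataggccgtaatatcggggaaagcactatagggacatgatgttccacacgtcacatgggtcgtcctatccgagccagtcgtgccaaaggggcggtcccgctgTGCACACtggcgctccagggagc
Mt2: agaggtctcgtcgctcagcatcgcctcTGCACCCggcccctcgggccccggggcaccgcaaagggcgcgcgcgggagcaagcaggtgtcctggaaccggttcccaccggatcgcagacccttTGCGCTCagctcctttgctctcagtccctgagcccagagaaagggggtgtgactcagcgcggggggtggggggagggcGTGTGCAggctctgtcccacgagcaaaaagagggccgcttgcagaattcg
Gclm: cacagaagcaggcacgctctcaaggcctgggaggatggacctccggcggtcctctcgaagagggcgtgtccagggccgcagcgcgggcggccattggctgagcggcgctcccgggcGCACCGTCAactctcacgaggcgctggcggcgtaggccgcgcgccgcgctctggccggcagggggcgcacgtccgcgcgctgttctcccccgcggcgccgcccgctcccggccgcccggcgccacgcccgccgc
Slc7a11: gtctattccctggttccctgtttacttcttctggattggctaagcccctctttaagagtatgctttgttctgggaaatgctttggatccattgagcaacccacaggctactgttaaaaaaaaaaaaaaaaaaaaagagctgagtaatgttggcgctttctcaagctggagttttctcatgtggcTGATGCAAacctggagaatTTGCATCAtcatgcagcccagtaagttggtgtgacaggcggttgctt

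The Mt2 window held 3 metal response element cores, and 1.26% of all 32851 promoter windows of that length held 3 or more. The Mt1 window held 1, 23 to 17 bases before the start, and 21.4% of all windows held at least 1. Mt1 also has annotated transcripts that start at 94179211 and 94179241, downstream of the printed window. Those of Mt2 start at 94172664 and 94172860, likewise downstream of its window. Bases between a window and these starts were not searched, and all distances are from the RefSeq start. An antioxidant response element core was found in the windows of Mt2 (79 to 71 bases before the start), Gclm, Prdx1 and 1 of 3 Txnrd1 starts, against 10.2% of all windows. In Gclm it lay 134 to 126 bases before the start and overlapped 1 of 2 metal response element cores. Slc7a11 had the amino acid response element at 66 to 59 and at 47 to 40 bases before its start. Only 2 of the 32851 windows held that motif more than 1 time. The looser antioxidant form TGANNNNGC, found in 35.2% of all windows, matched Slc7a11 at 97 to 89 and 45 to 37 bases before the start, the latter overlapping an amino acid response element. Srxn1 held 3 of these looser matches. No match to these motifs was found in the Nqo1 and Gpx1 windows, and Gsr was not matched in the promoter table. A match describes letters in the window and does not show that a factor binds there.

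Hepatocyte-like cells had the highest metallothionein levels of the 11 classes in both libraries, and those levels were several times lower in the yap1 library. In monocyte-derived macrophage-like, monocyte-like, Kupffer cell-like and sinusoidal endothelial cell-like cells the yap1 library had more Mt1 than the wild-type library. Lymphocyte and plasmacytoid dendritic cell classes had little of either gene. Levels are given as CPM with 95% intervals for counting error alone; no library was replicated.

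Mt1 (ENSMUSG00000031765, chromosome 8, 94179082 to 94180327, plus strand on GRCm38) was at 5967 (5678 to 6267) CPM in wild-type hepatocyte-like cells and 1308 (1184 to 1441) CPM in yap1 ones, from 1601 and 410 UMIs. The ratio of yap1 over wild type was 0.219 (0.196 to 0.244). Leaving out in each library the 5 cells that held most Mt1 UMIs, a choice made after seeing the data, it was 0.175 (0.152 to 0.2003), so the libraries stood as far apart in the remaining cells. Mt1 UMIs were found in 68.1% of the wild-type and 65.0% of the yap1 cells, and after thinning each cell to 1000 UMIs in 68.5% of 92 and 48.8% of 84 cells. In B cell-like cells, a class with little metallothionein, 5.56% and 4.13% had a UMI at median depths of 3660.5 and 4416, against depths of 1395 and 1560 in the hepatocyte-like class.

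Other hepatocyte transcripts also differed between the libraries in this class. Alb, Cyp2e1 and several more of the hepatocyte genes read here are also markers used to define the class, so the choice of cells shapes their levels. Albumin (Alb) was at 36547 CPM in the wild-type and 26224 CPM in the yap1 hepatocyte-like cells. The number of Mt1 UMIs per 100 Alb UMIs was 16.3 (15.5 to 17.2) and 4.99 (4.51 to 5.51), so Mt1 was lower relative to albumin too. Cyp2e1, which activates carbon tetrachloride and is a gene of hepatocytes near the central vein, was at 332 and 63.8 CPM, a ratio of 0.192 (0.112 to 0.315). The 21 listed hepatocyte genes summed to 165230 and 158031 CPM, with 3 of 21 lower and 1 higher past 1.5-fold. Of all genes with at least 20 UMIs in this class, 9.73% were lower and 17.9% higher past 1.5-fold. Whether the libraries sampled hepatocytes from different parts of the lobule was not tested.

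In monocyte-derived macrophage-like cells Mt1 was at 491 (472 to 511) CPM in the wild-type and 695 (679 to 712) CPM in the yap1 library, for a ratio of 1.42 (1.35 to 1.48). The difference was spread over cells: 80.6% of the wild-type and 88.9% of the yap1 cells had a UMI (30.4% and 37.2% after thinning), and without the 5 top cells the ratio was 1.43. Monocyte-like cells held 413 (391 to 436) and 539 (516 to 562) CPM. Both of these myeloid classes were higher in the yap1 library by more than the counting error.

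Kupffer cell-like cells (Kupffer cells being the macrophages that live in the liver sinusoids) held 191 (170.2 to 213) CPM of Mt1 in the wild-type and 245 (214 to 279) CPM in the yap1 library, and 30.4% and 41.2% of cells had a UMI (14.9% and 19.9% after thinning). Sinusoidal endothelial cell-like cells were at 438 (406 to 473) and 543 (498 to 591) CPM. Their ratio was 1.24 (1.10 to 1.39) and 1.16 (1.02 to 1.31) without the 5 top cells, while the share of cells with a UMI was 59.1% and 55.0%. Without thinning, the endothelial difference was thus in UMIs per cell and not in the share of cells, which was lower in the yap1 library. Median depths of this class were 2412 and 2219 UMIs, and after thinning its Mt1 ratio was 1.07, a smaller difference.

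The ratios of patrolling monocyte-like and neutrophil-like cells rested on a few cells. Patrolling monocyte-like cells went from 99.0 to 137 CPM, a ratio of 1.38 (1.08 to 1.77) that was 1.02 without the 5 top cells. In neutrophil-like cells 1 yap1 cell held 60 of 94 Mt1 UMIs, and the ratio of 1.33 (0.954 to 1.87) was 0.814 (0.418 to 1.58) without the 5 top cells. Conventional dendritic cell 2-like cells, a class of antigen-presenting cells, were at 528 (479 to 582) and 456 (416 to 498) CPM, lower in the yap1 library. There the direction depended on the way of forming the class: with graph clusters in place of marker lists the ratio was 1.27.

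B cell-like cells had 30.5 CPM of Mt1 in the wild-type and 13.1 CPM in the yap1 library, for a ratio of 0.428 (0.312 to 0.580), and T cell-like cells 20.7 and 13.2 CPM, a ratio of 0.634 (0.422 to 0.948). Plasmacytoid dendritic cell-like cells held 15 and 3 UMIs in all. In these classes the gene was at its lowest. The free hepatocyte RNA list was lower there too: in T cell-like cells 0 were higher and 14 lower of 14 genes, with a summed ratio of 0.613. In B cell-like cells 4 were higher and 12 lower of 16, with a summed ratio of 0.852. In monocyte-derived macrophage-like cells, where Mt1 was higher, 3 of these genes were higher and 14 lower of 17. Among them Hp, at 68.2 and 30.3 CPM there, is also a marker used to define the monocyte-like class, where it was at 1430 and 1189 CPM. In myeloid classes the list thus does not read hepatocyte RNA alone. The part of free hepatocyte RNA in the Mt1 ratios was not tested. To set Mt1 beside free hepatocyte RNA, it was counted relative to albumin: Mt1 per 100 Alb UMIs was 75.2 and 38.3 in B cell-like and 74.7 and 63.0 in T cell-like cells. By the same measure it was 1827 and 3353 in monocyte-derived macrophage-like cells, 615 and 645 in endothelial and 237 and 153 in Kupffer cell-like cells. The hepatocyte-like values of the same libraries were 16.3 and 4.99. Barcodes that failed the filters, which can hold free RNA, had 105 Mt1 and 412 Alb UMIs in the wild-type library. In the yap1 library they had 93 and 398. Alb itself was 80.5 and 159.9 CPM in Kupffer cell-like cells, higher in the yap1 library, and how much free hepatocyte RNA adds to Mt1 there was not tested.

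**Figure D1:**
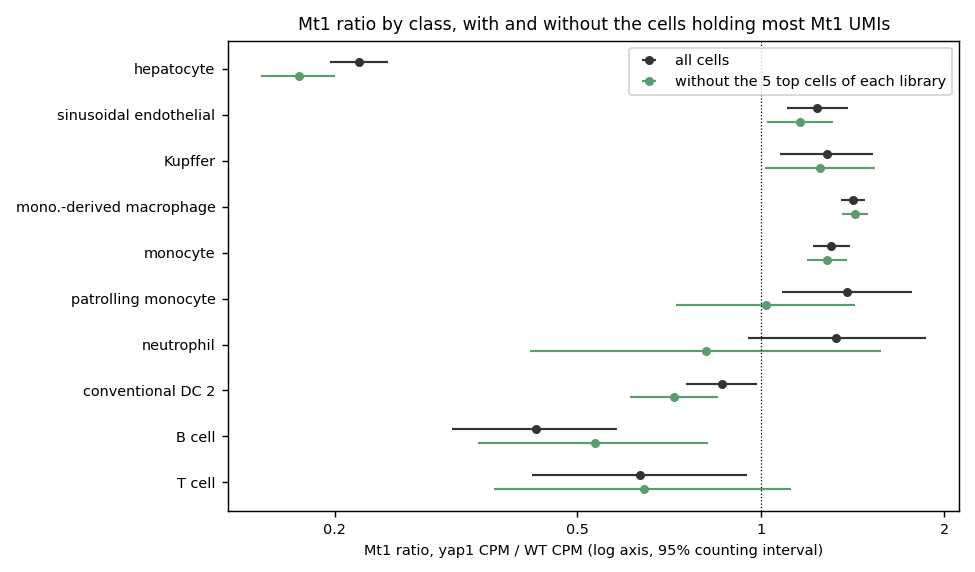
Ratio of Mt1 CPM, yap1 over wild type, on a logarithmic axis for each class, with 95% counting intervals, for all cells and without the 5 cells of each library that hold most Mt1 UMIs. The hepatocyte-like ratio of 0.219 lies far to the left of the monocyte-derived macrophage-like ratio of 1.42, and the patrolling monocyte-like and neutrophil-like ratios move to 1.02 and 0.814 without those cells.

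In the order of Mt1 levels, hepatocyte-like cells stood apart from the next class in both libraries. Behind them in the wild-type library came conventional dendritic cell 2-like, monocyte-derived macrophage-like, endothelial and monocyte-like cells, whose neighbours overlapped within counting error. In the yap1 library monocyte-derived macrophage-like cells came next and stood apart from endothelial and monocyte-like cells, which overlapped. Kupffer cell-like, patrolling monocyte-like and neutrophil-like cells followed in that order in both libraries, and the lymphocyte and plasmacytoid classes came last.

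Mt2 (ENSMUSG00000031762, chromosome 8, 94172664 to 94173568, plus strand) lies next to Mt1 on the same strand and overlaps the predicted gene Gm45774 on the other strand, so reads of both could not be told apart if the counting ignored strand. In hepatocyte-like cells it was at 1726 (1572 to 1890.2) CPM in the wild-type and 360.5 (297 to 433) CPM in the yap1 library, for a ratio of 0.209 (0.169 to 0.257). The share of cells with a UMI was 59.3% and 34.1% (52.2% and 20.2% after thinning). Both metallothioneins were thus lower by a like factor in this class.

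Endothelial cells had the next highest Mt2 level, with 139 (121 to 159) and 122 (102 to 146) CPM, a ratio of 0.877 (0.696 to 1.10) whose interval includes 1. Monocyte-derived macrophage-like cells held 29.6 (25.1 to 34.6) and 27.1 (23.9 to 30.7) CPM (a ratio of 0.917, between 0.520 and 1.59 under the alternatives) and monocyte-like cells 21.2 (16.4 to 27.0) and 22.6 (18.1 to 27.9) CPM. Mt2 was therefore not higher in the yap1 library in these 3 classes beyond counting error, where Mt1 was.

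Conventional dendritic cell 2-like cells went from 70 to 27 Mt2 UMIs, 88.9 to 25.4 CPM, a ratio of 0.286 (0.176 to 0.452) that was 0.741 with graph clusters. B cell-like cells held 58 and 4 UMIs, a ratio of 0.0805 (0.0212 to 0.217). There 23 of the wild-type UMIs came from 1 cell, and 17 and 0 UMIs were left without the 5 top cells of each library. Neutrophil-like cells held 26 and 34 UMIs, of which 1 cell in each library held 18 and 33. Kupffer cell-like cells held 17 and 4 UMIs, patrolling monocyte-like cells 9 and 4, T cell-like cells 4 and 4, and plasmacytoid dendritic cell-like cells 4 and 1. In these 4 classes the depth allows no order.

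The number of Mt2 UMIs per 100 Mt1 UMIs differed between classes. In the wild-type library it was 28.9 (26.0 to 32.1) in hepatocyte-like and 31.8 (27.1 to 37.2) in endothelial cells, against 6.02 (5.08 to 7.09) in monocyte-derived macrophage-like and 5.14 (3.96 to 6.58) in monocyte-like cells. The yap1 values of the same classes were 27.6 (22.2 to 34.0), 22.5 (18.3 to 27.4), 3.90 (3.43 to 4.42) and 4.20 (3.35 to 5.195). The hepatocyte-like and endothelial values lay several times above those of these 2 myeloid classes in both libraries, with intervals that did not overlap. Kupffer cell-like cells were at 5.40 (3.10 to 8.78) and 1.75 (0.474 to 4.55), and patrolling monocyte-like cells at 7.69 (3.43 to 15.1) and 2.52 (0.677 to 6.57). Conventional dendritic cell 2-like cells were at 16.8 (12.9 to 21.7) in the wild-type and 5.58 (3.64 to 8.22) in the yap1 library. Neutrophil-like cells were at 42.6 (25.8 to 68.5) and 36.2 (23.7 to 54.1), values that rest on a few cells. Without the 5 top cells of each library 3 and 0 Mt2 UMIs were left there, so the neutrophil-like proportion is not settled. Between the libraries the hepatocyte-like proportion overlapped while both genes were lower. The proportion of monocyte-derived macrophage-like cells was lower in the yap1 library with intervals apart, and 1 wild-type cell held 38 of 154 Mt2 UMIs. With a stricter gate the Mt2 ratio of this class was 1.59, while its Mt1 ratio was at most 1.46 under the alternatives. The direction of the macrophage-like proportion thus depended on the gate. The endothelial proportion was lower with intervals that just overlapped. Of endothelial cells with an Mt2 UMI, 81.5% in the wild-type and 78.6% in the yap1 library also had an Mt1 UMI, against 50.2% and 48.4% of those without Mt2.

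**Figure D2:**
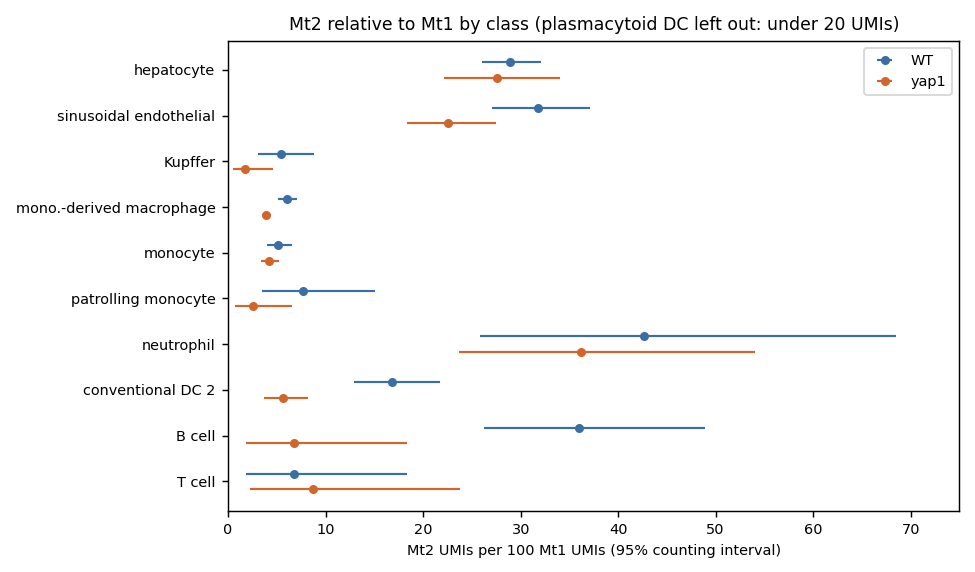
Mt2 UMIs per 100 Mt1 UMIs in each class and library, with 95% counting intervals. Hepatocyte-like and endothelial cells lie between 22.5 and 31.8, and monocyte-derived macrophage-like and monocyte-like cells between 3.90 and 6.02; the neutrophil-like and wild-type B cell-like values rest on UMIs of a few cells.

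Of the genes that supply and use glutathione, Slc7a11 and Gsr were highest in neutrophil-like cells, Gclm in hepatocyte-like cells and Gpx1 in patrolling monocyte-like and Kupffer cell-like cells. Slc7a11 was lower in the yap1 library in neutrophil-like and monocyte-derived macrophage-like cells. Gclm was lower in Kupffer cell-like and endothelial cells, and Gpx1 was higher in neutrophil-like and monocyte-like cells and lower in hepatocyte-like cells.

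Slc7a11 (ENSMUSG00000027737, chromosome 3, 49892526 to 50443614, minus strand) encodes the cystine and glutamate exchanger that brings in cystine for glutathione synthesis. Neutrophil-like cells held 753 (707 to 801) CPM in the wild-type and 623 (585 to 664) CPM in the yap1 library, for a ratio of 0.827 (0.757 to 0.905). A UMI was found in 74.0% and 65.7% of cells (47.3% and 39.3% after thinning). In B cell-like cells the shares were 0.618% and 0.218% although these cells were deeper (3660.5 and 4416 UMIs in the median cell) than neutrophil-like ones (2908 and 3095). The gene was thus carried by most neutrophil-like cells and nearly absent from B cell-like ones of a greater depth.

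The next classes were other myeloid cells. Patrolling monocyte-like cells held 42.3 (31.4 to 55.8) and 29.3 (20.3 to 40.9) CPM and monocyte-like cells 24.1 (19.0 to 30.1) and 20.3 (16.1 to 25.3) CPM, differences within counting error. Monocyte-derived macrophage-like cells went from 35.7 (30.8 to 41.2) to 23.7 (20.7 to 27.0) CPM, a ratio of 0.664 (0.544 to 0.811) that was 0.762 (0.600 to 0.971) without the 5 top cells. Kupffer cell-like cells held 1 and 2 UMIs, conventional dendritic cell 2-like cells 3 and 1, B cell-like cells 9 and 2, T cell-like cells 0 and 2, and endothelial cells 0 and 1. Plasmacytoid dendritic cell-like and hepatocyte-like cells held none in either library. Reading 0 UMIs as up to 3, that allows up to 11.2 and 9.57 CPM in hepatocyte-like cells, far under the neutrophil-like level. Slc3a2, the heavy chain that carries Slc7a11 to the membrane and partners other transporters as well, was at 85.8 and 90.2 CPM in neutrophil-like cells, a ratio of 1.05 (0.815 to 1.36).

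Neutrophil-like cells were also split by granule genes of immature neutrophils (Camp, Ngp and Ltf), a choice made after seeing the data. The 46 wild-type and 22 yap1 cells with 3 or more UMIs of these genes had median depths of 7424.5 and 11328 UMIs, and the remaining 342 and 409 cells 2785 and 3047. Slc7a11 was at 205 (161 to 257) and 141 (99.0 to 196) CPM in the granule-high cells. The other cells held 956 (895 to 1019) and 718 (672 to 765) CPM, several times more in both libraries. The lower yap1 level was thus also seen among the granule-low cells, which made up most of the class.

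**Figure D3:**
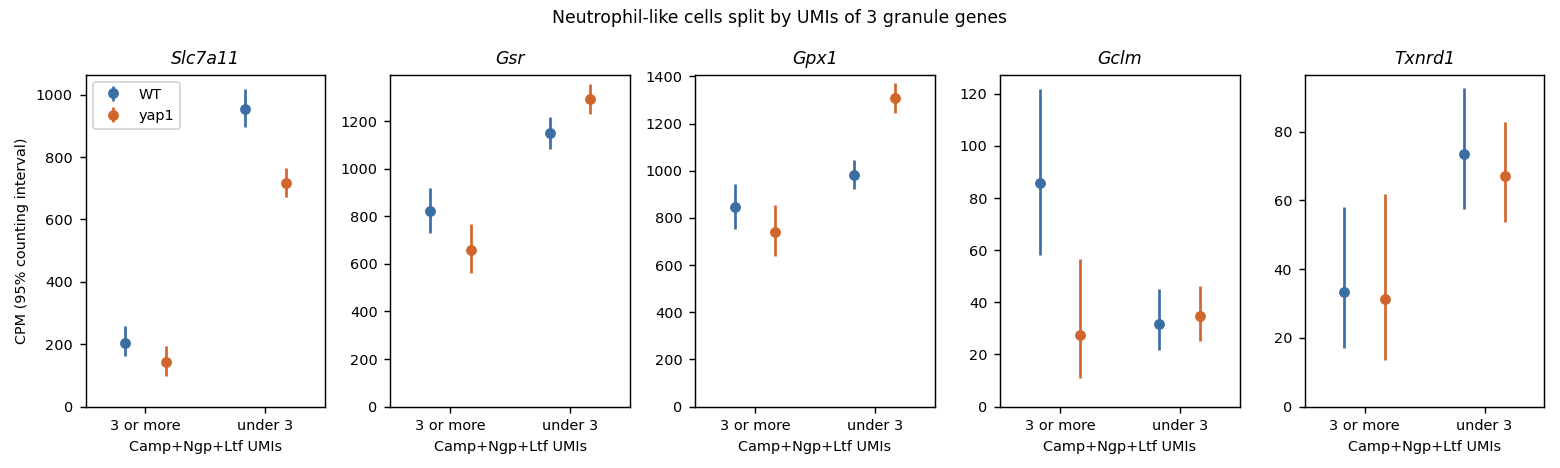
CPM of members in neutrophil-like cells with 3 or more and with under 3 UMIs of Camp, Ngp and Ltf, for each library, with 95% counting intervals. Slc7a11 lies higher in the cells with few granule UMIs in both libraries, at 956 (895 to 1019) CPM in the wild-type library.

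Gsr (ENSMUSG00000031584, chromosome 8, 33652523 to 33698163, plus strand) encodes glutathione reductase, which returns oxidised glutathione to its reduced form. In neutrophil-like cells it was at 1062 (1007 to 1118) CPM in the wild-type and 1189.7 (1136 to 1245) CPM in the yap1 library, with a UMI in 90.7% and 92.1% of cells against 3.86% and 2.83% of B cell-like cells. Its ratio there was 1.12 (1.05 to 1.202), which in log2 units equals the shift of the median gene of that class (0.16). Relative to other genes of the class, Gsr did not stand out. In the granule split it was at 822 (732 to 921) and 659 (564 to 767) CPM in granule-high cells and at 1149.8 (1084 to 1219) and 1294 (1233 to 1357) CPM in the rest.

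Patrolling monocyte-like cells (561 and 552 CPM) and monocyte-like cells (496 and 444 CPM) came next in the order of Gsr levels, and only in the wild-type library did these neighbours overlap. Monocyte-derived macrophage-like cells were much lower, at 77.2 (69.8 to 85.1) and 57.0 (52.3 to 62.0) CPM, a ratio of 0.738 (0.648 to 0.842). The ratio was 0.636 (0.404 to 0.979) in endothelial cells (74 and 31 UMIs) and 1.24 (1.02 to 1.51) in Kupffer cell-like cells, which became 1.22 (0.979 to 1.53) without the 5 top cells. The lowest Gsr levels were in B cell-like cells, 10.2 and 6.64 CPM. Thus the macrophage-like and endothelial classes were lower in the yap1 library, and the higher Kupffer cell-like value depended on a few cells for its interval.

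Gpx1 (ENSMUSG00000063856, chromosome 9, 108338903 to 108340343, plus strand) encodes the cytosolic glutathione peroxidase, a selenoprotein that reduces hydrogen peroxide. Its levels were 3249.7 (3148 to 3354) and 3595 (3487 to 3706) CPM in patrolling monocyte-like cells and 3216 (3130.3 to 3304) and 3254 (3139.6 to 3372) CPM in Kupffer cell-like cells, in the order wild type and yap1. Monocyte-like cells were at 2156 (2106 to 2208) and 2499 (2449.9 to 2549.5) CPM, monocyte-derived macrophage-like cells at 1742 (1706 to 1778) and 1703 (1676.5 to 1729) CPM and neutrophil-like cells at 945 (894 to 999) and 1215 (1161 to 1271) CPM. Endothelial cells (219 and 220.4 CPM), B cell-like cells (257 and 281 CPM) and T cell-like cells (168 and 154 CPM) lay several times below every myeloid class.

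The Gpx1 ratio was 1.29 (1.196 to 1.38) in neutrophil-like cells, where the median gene was 0.16 higher on the log2 scale, 1.16 (1.12 to 1.196) in monocyte-like cells and 1.11 (1.06 to 1.16) in patrolling monocyte-like cells. In hepatocyte-like cells it was 0.794 (0.704 to 0.896), from 2121 and 1684 CPM. Kupffer cell-like and monocyte-derived macrophage-like ratios were 1.01 (0.967 to 1.06) and 0.977 (0.952 to 1.003), intervals that include 1. The interval lay above 1 in 5 of 11 classes and below 1 in 1. Counting intervals are narrow for a gene with this many UMIs, so small shifts also lie apart from 1. The share of all genes with such intervals is not given here.

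Gclm (ENSMUSG00000028124, chromosome 3, 122245557 to 122270732, plus strand) encodes the modifier subunit of glutamate-cysteine ligase, the rate-limiting enzyme of glutathione synthesis. It was highest in hepatocyte-like cells, at 403 (330.2 to 486) and 309 (251 to 378) CPM. Endothelial cells went from 78.6 (65.1 to 94.02) to 46.1 (33.7 to 61.5) CPM (119 and 46 UMIs), a ratio of 0.587 (0.408 to 0.831). In Kupffer cell-like cells it went from 75.1 (62.4 to 89.5) to 46.1 (33.4 to 62.1) CPM, a ratio of 0.615 (0.424 to 0.876). These were the 2 classes in which the interval lay below 1, and hepatocyte-like cells, with a ratio of 0.769 (0.578 to 1.02), were lower within counting error.

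Monocyte-derived macrophage-like cells held 68.2 and 63.1 CPM of Gclm, a ratio of 0.925 (0.810 to 1.06). Neutrophil-like cells held 46.3 and 33.5 CPM and monocyte-like cells 36.1 and 31.1 CPM. B cell-like cells were lowest in both libraries, at 12.9 and 12.2 CPM. Between hepatocyte-like and B cell-like cells most neighbours in the order overlapped, so that the middle of the order is not resolved. The point estimate was lower in the yap1 library in 10 of 11 classes, patrolling monocyte-like cells being the exception.

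Of the thioredoxin and peroxiredoxin genes, Txnrd1 and Prdx1 were highest in hepatocyte-like and Kupffer cell-like cells and Srxn1 in hepatocyte-like cells, and the ratios of all 3 lay mostly under 1. Txnrd1 (ENSMUSG00000020250, chromosome 10, 82833951 to 82897712, plus strand) encodes cytosolic thioredoxin reductase, which keeps thioredoxin reduced. It was at 129.6 (113 to 148) and 112 (91.2 to 135) CPM in Kupffer cell-like cells and 127 (87.8 to 177) and 137 (99.3 to 185) CPM in hepatocyte-like cells, which overlapped in both libraries. The Kupffer cell-like ratio of 0.861 became 1.75 after thinning. The ratio for Txnrd1 came to 0.794 (0.692 to 0.911) in monocyte-derived macrophage-like, 0.777 (0.630 to 0.958) in monocyte-like and 0.526 (0.284 to 0.930) in endothelial cells, the last from 49 and 17 UMIs. The endothelial value was 0.319 without the 5 top cells and 0.840 with no cell filter, where it is not past 1.5-fold. These were the 3 of 11 classes with an interval that does not include 1, all of them lower in the yap1 library. Plasmacytoid dendritic cell-like cells were lowest, at 9.36 and 9.55 CPM.

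Prdx1 (ENSMUSG00000028691, chromosome 4, 116685544 to 116700822, plus strand) encodes a peroxiredoxin that reduces peroxides with electrons from thioredoxin. Cut into words of 50 bases, the final 500 bases of its transcripts share 21.3% of these words with 3 predicted genes, so its counts are uncertain; for the other 9 members the share was 0%. Gclm, Gsr, Txnrd1 and Slc7a11 overlap other annotated genes, some on the same strand (Gm6061, Gm24727, Eid3, and Gm37692 and Gm37498, in that order), and their counts carry that uncertainty. Its levels were 3384 (3168 to 3612) and 2979.7 (2792 to 3177) CPM in hepatocyte-like cells and 1712 (1649 to 1776) and 1537 (1458 to 1618) CPM in Kupffer cell-like cells. Monocyte-derived macrophage-like cells followed at 1229 (1199 to 1259) and 1227 (1204 to 1249) CPM. The first 3 places were held by these classes in both libraries and did not overlap.

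Neutrophil-like cells were lowest for Prdx1, at 38.8 (29.0 to 50.9) and 46.4 (36.3 to 58.4) CPM, the reverse of their place for Slc7a11 and Gsr. The Prdx1 ratio was 0.898 (0.842 to 0.957) in Kupffer cell-like and 0.880 (0.803 to 0.966) in hepatocyte-like cells, and 0.998 (0.968 to 1.03) in monocyte-derived macrophage-like cells. The interval lay below 1 in 7 of 11 classes and above 1 in 0. As for Gpx1, the many UMIs make these intervals narrow, so small shifts also count, and no share over all genes is given. The lowest ratio, 0.686 (0.621 to 0.758) in patrolling monocyte-like cells, was 0.834 (0.744 to 0.934) without the 5 top cells, since 1 wild-type cell held 169 of 997 UMIs.

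Srxn1 (ENSMUSG00000032802, chromosome 2, 152105516 to 152111376, plus strand) encodes sulfiredoxin, which restores peroxiredoxins that peroxide has over-oxidised. It was at 67.1 (39.8 to 106) and 60.6 (36.5 to 94.7) CPM in hepatocyte-like cells, above every other class. Monocyte-derived macrophage-like cells went from 24.6 (20.5 to 29.2) to 16.2 (13.7 to 18.9) CPM, a ratio of 0.658 (0.516 to 0.839) that was 0.848 (0.622 to 1.16) without the 5 top cells. Endothelial cells held 19.1 and 21.0 CPM and neutrophil-like cells 15.7 and 12.2 CPM, and B cell-like cells 3 and 0 UMIs. Without those cells the macrophage-like difference was within counting error.

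Nqo1 (ENSMUSG00000003849, chromosome 8, 107388225 to 107403206, minus strand), which encodes a quinone reductase and is widely used as a readout of NRF2, was rare. All kept cells together held 62 UMIs in the wild-type and 8 in the yap1 library, 2.19 and 0.253 CPM, a ratio of 0.115 (0.0476 to 0.241). Endothelial cells gave 30 and 4 of these UMIs, a ratio of 0.202 (0.0518 to 0.574). A lone wild-type endothelial cell held 9 of them, and 10 and 0 UMIs were left without the 5 top cells of each library. Neutrophil-like cells gave 11 and 1 UMIs and hepatocyte-like cells 6 and 1. No other compared class held more than 2 UMIs in a library, which is too few for a ratio.

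**Figure D4:**
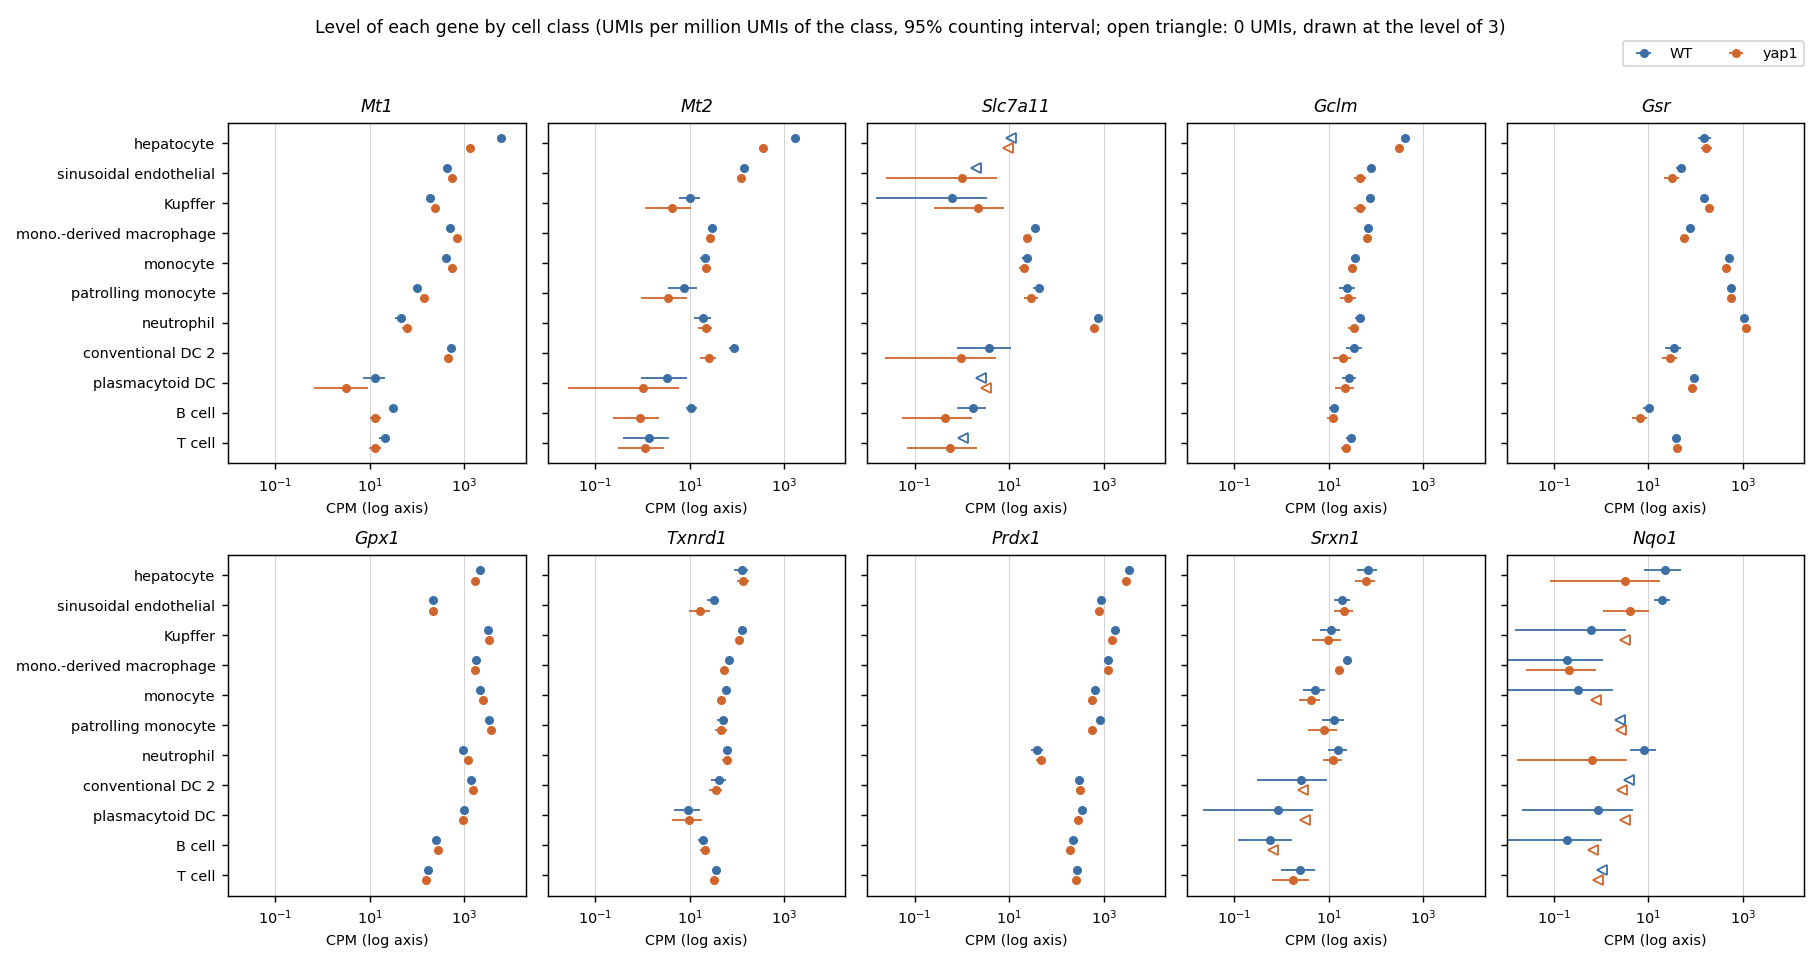
CPM of each of the 10 genes in the 11 classes on a logarithmic axis, wild type and yap1, with 95% counting intervals. Mt1 and Mt2 peak in hepatocyte-like cells, Slc7a11 and Gsr in neutrophil-like cells at 753 and 1062 CPM in the wild-type library, while Prdx1 is lowest there.

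Read together, the 10 genes gave 85 ratios with at least 20 UMIs over the 11 classes, of which 17 lay past 1.5-fold. Each of the 17 point estimates was lower in the yap1 library, but some lay within counting error. The intervals of Mt2 in Kupffer cell-like (0.102 to 1.28) and Srxn1 in patrolling monocyte-like cells (0.236 to 1.49) include 1. So do those of Gclm in conventional dendritic cell 2-like (0.310 to 1.06) and Gsr in B cell-like cells (0.401 to 1.03). Of the 17, hepatocyte-like cells had Mt1 and Mt2, 2 of 8 members. There 27.6% of all genes with at least 20 UMIs lay past 1.5-fold in either direction, and 9.73% were lower by that much. Endothelial cells had 4 of 9 (Nqo1, Gclm, Gsr and Txnrd1) against 16.1% of genes in either direction and 9.47% lower. B cell-like cells had 3 of 7 (Mt1, Mt2 and Gsr) against 10.9% of genes in either direction and 5.43% lower. In B cell-like cells the Mt2 ratio rests on a few cells, as given above. In these last 2 classes the members' share was above both backgrounds, on few UMIs for most of the genes. The endothelial Txnrd1 call depends on the cell filter. In hepatocyte-like cells the members' share was above the lower background only.

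In Kupffer cell-like cells 2 of 8 members, Mt2 and Gclm, were past 1.5-fold against 18.8% of genes, and in conventional dendritic cell 2-like cells 2 of 7, again Mt2 and Gclm, against 20.9%. Monocyte-derived macrophage-like cells had 2 of 9, Srxn1 and Slc7a11, against 11.3%. Patrolling monocyte-like cells had 1 of 8, Srxn1, against 16.2%, and T cell-like cells 1 of 6, Mt1, against 12.1%. The shares of genes lower past 1.5-fold were 9.49%, 10.4%, 5.57%, 9.61% and 5.90% in these classes, in the order given. Each count lies within about 1 gene of what the share in either direction gives, and above what the lower share gives. The Mt2 ratio of Kupffer cell-like cells, the Gclm ratio of conventional dendritic cell 2-like cells and the Mt1 ratio of T cell-like cells lay above 1 under at least 1 other way of choosing cells. None of 9 members was past 1.5-fold in monocyte-like cells (13.8% of genes), none of 9 in neutrophil-like cells (25.8%) and none of 5 in plasmacytoid dendritic cell-like cells (15.8%).

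The median log2 ratio over the members was -0.17 in Kupffer cell-like, -0.13 in monocyte-derived macrophage-like and -0.22 in monocyte-like cells, beside medians over all genes of 0.02, 0.01 and -0.0015. It was -0.19 in endothelial and -0.26 in hepatocyte-like cells, beside -0.03 and 0.08. In neutrophil-like cells it was 0.16, the same as the median of all genes there, 0.16, a shift that scaling by the median of ratios removes. In monocyte-derived macrophage-like cells Mt1 was the 1 higher member of 9 (log2 ratio 0.50), and the 8 others were lower, down to Slc7a11 and Srxn1 (log2 ratios -0.59 and -0.60). The median of Kupffer cell-like cells was 0.24 after thinning, and that of neutrophil-like cells lay between -0.19 and 0.17 under the alternatives, so neither has a settled sign. Over all kept cells the ratio was 1.30 (1.27 to 1.34) for Mt1 and 0.567 (0.518 to 0.620) for Mt2, which mixes the changes within classes with the different numbers of cells per class.

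**Figure D5:**
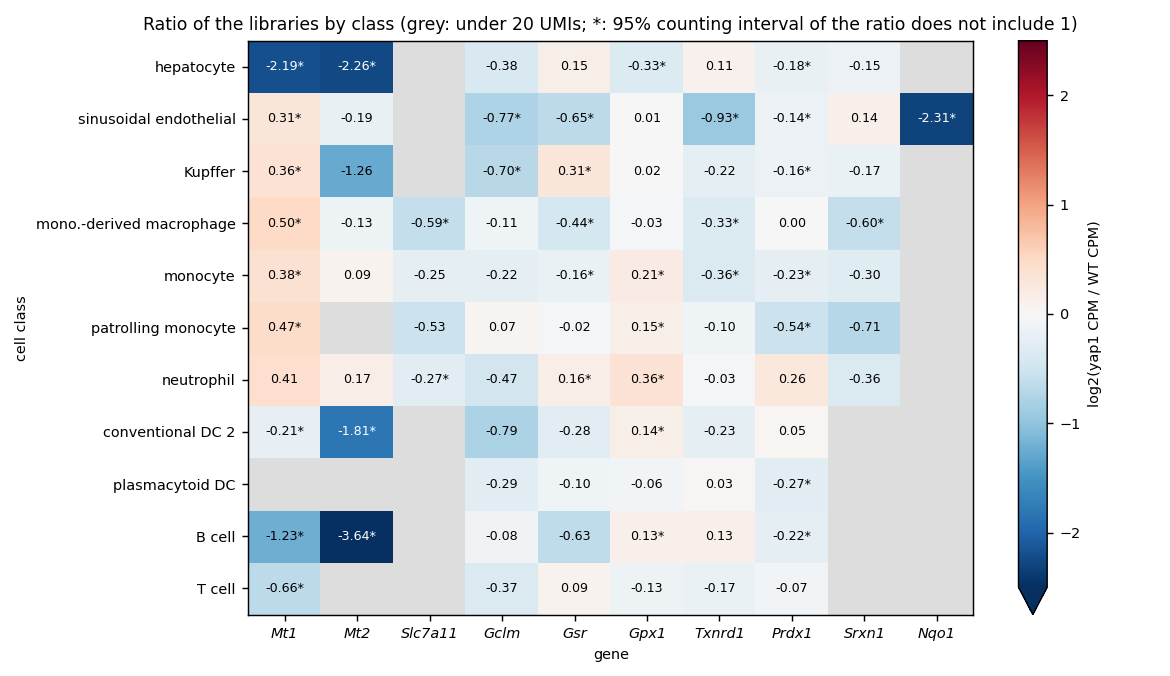
Log2 ratio, yap1 over wild type, of each gene in each class with at least 20 UMIs, where a star marks a 95% counting interval of the ratio that does not include 1. The strongest entries are the low ratios of Mt1 and Mt2 in hepatocyte-like, Mt2 in B cell-like and Nqo1 in endothelial cells, and Gpx1 and Mt1 hold most of the starred higher entries.

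The order of classes was much alike in both libraries. Spearman's rank correlation of the 11 class levels between wild type and yap1 was 0.991 for Prdx1 and for Gsr, 0.982 for Gpx1, 0.964 for Txnrd1 and 0.936 for Mt1, and lowest for Nqo1 at 0.733. The classes share their 2 libraries and differ in depth, so these values describe the order only.

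Other NRF2 targets were read from a list of 36 genes. In monocyte-derived macrophage-like cells 13 of the 31 with at least 20 UMIs were higher and 18 lower in the yap1 library. Past 1.5-fold 2 were higher and 1 lower, against 5.70% and 5.57% of all genes, and the median log2 ratio was -0.04. In Kupffer cell-like cells 12 were higher and 15 lower of 27, with a median of -0.02. Past 1.5-fold 2 were higher and 0 lower, against 9.33% and 9.49% of all genes. Those 2 were the glutathione transferases Gstp2 and Gstp1, with ratios of 1.99 (1.48 to 2.68) and 1.63 (1.23 to 2.15). Fth1, the heavy chain of the iron store ferritin, was at 13069 and 8934 CPM there, a ratio of 0.684 (0.666 to 0.701). The median gene of this list moved little in both macrophage classes. Its summed level, which the most abundant genes dominate, went from 32747 to 27067 CPM in Kupffer cell-like cells, a ratio of 0.827 (0.814 to 0.839). In monocyte-derived macrophage-like cells the summed ratio was 1.046 (1.040 to 1.052).

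Endothelial cells had 11 higher and 16 lower of 27 listed targets, with a median of -0.08. Past 1.5-fold 3 were higher and 6 lower, against 6.68% and 9.47% of all genes. Hmox1, which encodes the heme-degrading enzyme heme oxygenase 1, went from 115 to 57.1 CPM, a ratio of 0.497 (0.362 to 0.674). Mgst1, a microsomal glutathione transferase, had a ratio of 0.624 (0.413 to 0.924). Slc3a2, from a list of cystine and ATF4 genes, was also lower, at 289 and 189 CPM with a ratio of 0.656 (0.550 to 0.780). Ugdh, which makes UDP-glucuronate, had a ratio of 1.76 (0.995 to 3.13), whose interval includes 1.

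Hepatocyte-like cells had 8 higher and 19 lower of 27 targets, with a median of -0.22. Past 1.5-fold 4 were higher and 4 lower, against 17.9% and 9.73% of all genes. The glutathione transferase Gsta1 went from 645 to 284 CPM, a ratio of 0.440 (0.337 to 0.572). Gstp1 was at a ratio of 1.83 (1.63 to 2.06) in hepatocyte-like cells and was higher in the yap1 library in 9 classes in all, with intervals above 1. Its ratio was 2.06 in monocyte-like, 1.80 in plasmacytoid dendritic cell-like, 1.78 in B cell-like, 1.70 in conventional dendritic cell 2-like, 1.60 in patrolling monocyte-like, 1.53 in T cell-like cells. It was 1.63 in Kupffer cell-like and 1.35 in monocyte-derived macrophage-like cells. These classes include hepatocyte-like, B cell-like and T cell-like cells, at which Cre is not directed, and the source of the difference was not tested. Gstp1 has a near-identical neighbour, Gstp2, which makes the split of reads between them uncertain. In neutrophil-like cells 10 were higher and 11 lower of 21, and Osgin1, an oxidative stress response gene, had a ratio of 1.48 (1.15 to 1.91). On the log2 scale that is 0.56, where the median gene of the class was 0.16 higher. T cell-like cells had 7 higher and 19 lower of 26 and B cell-like cells 10 and 17 of 27. Past 1.5-fold 1 was higher and 5 lower in T cell-like cells, against 6.25% and 5.90% of all genes. In B cell-like cells 2 were higher and 1 lower by that much, against 5.49% and 5.43%.

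Regulators of the pathway were a list of 9 genes. Nfe2l2, which encodes NRF2, was at 329.6 CPM in wild-type and 230.2 CPM in yap1 monocyte-derived macrophage-like cells, a ratio of 0.699 (0.655 to 0.745). The ratio was 0.761 (0.611 to 0.944) in Kupffer cell-like and 0.559 (0.446 to 0.699) in conventional dendritic cell 2-like cells. In T cell-like cells, at which Cre is not directed, it was 0.707 (0.530 to 0.942), and the source of these differences was not tested. The ratios of 0.904 (0.736 to 1.11) in endothelial, 0.899 (0.753 to 1.07) in B cell-like and 0.755 (0.547 to 1.03) in plasmacytoid dendritic cell-like cells have intervals that include 1. In the monocyte-derived macrophage-like class 8 of the 9 were lower, with a median log2 ratio of -0.19. Past 1.5-fold 0 were higher and 1 lower, against 5.70% and 5.57% of all genes. That 1 was the small MAF gene Maff, with a ratio of 0.496 (0.393 to 0.624). In neutrophil-like cells the small MAF gene Mafg had a ratio of 0.656 (0.513 to 0.837). Atf4, the factor that acts on amino acid response elements, had 1.403 (1.09 to 1.81) there. On the log2 scale the Atf4 ratio is 0.49, where the median gene of the class was 0.16 higher. Endothelial cells had 5 higher and 4 lower. The RNA level of Nfe2l2 does not measure NRF2 activity, which is set mainly by protein stability.

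Of 18 listed peroxide and superoxide enzymes, 16 were in the files. In Kupffer cell-like cells 4 were higher and 11 lower of 15, with a median log2 ratio of -0.11. Past 1.5-fold 0 were higher and 1 lower there, against 9.33% and 9.49% of all genes. In monocyte-derived macrophage-like cells 6 were higher and 9 lower of 15, with 0 past 1.5-fold in either direction, against 11.3% of all genes. Sod2, the mitochondrial superoxide dismutase, had a ratio of 0.692 (0.635 to 0.755) in monocyte-derived macrophage-like cells, while the cytosolic Sod1 had 1.26 (1.13 to 1.405). The glutaredoxin Glrx had a ratio of 0.609 (0.514 to 0.721) in neutrophil-like, 0.644 (0.481 to 0.855) in Kupffer cell-like and 0.780 (0.695 to 0.876) in monocyte-derived macrophage-like cells, lower in the yap1 library in each.

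Zinc and copper genes, which set the metal supply that metallothioneins respond to, were a list of 17. Monocyte-like cells had 7 higher and 6 lower of 13, and Slc30a1, a zinc exporter that is itself induced by MTF1, went from 26 to 65 UMIs, a ratio of 2.03 (1.27 to 3.33). In monocyte-derived macrophage-like cells, where Mt1 was also higher, 6 were higher and 8 lower of 14. Of these 0 were past 1.5-fold, against 11.3% of all genes. In endothelial cells 7 were higher and 6 lower of 13, and the zinc importer Slc39a8 had a ratio of 1.35 (1.12 to 1.62).

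Genes with the pattern most like a member were found by Pearson's correlation of log2(CPM + 1) over 23 points, each a class of at least 50 cells in 1 library, among 10028 genes with at least 200 UMIs. For Mt1 they included Pnp (r = 0.898) and Deptor (0.882). For Slc7a11 they were Clec4d (0.971), which is also a marker used to define the neutrophil-like class, Clec4e (0.961) and Alox5 (0.928). For Srxn1 they were Sqrdl (0.890), Dstn (0.875) and Ugp2 (0.856), and for Nqo1, on few UMIs, Qsox1 (0.857), Clu (0.833) and Bok (0.823). Among the members themselves Mt1 and Mt2 correlated at 0.854, Gclm and Srxn1 at 0.862 and Gsr and Slc7a11 at 0.708, while Prdx1 and Slc7a11 gave -0.42. The points share 2 libraries and their depths, and the values carry no test.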

How the data were processed

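Single-cell RNA counts came from 1 wild-type and 1 yap1 library of liver nonparenchymal cells. As deposited, and per the file headers, each library is a matrix of genes by cell barcodes holding whole counts that the authors had not normalized. Per the submitters' processing notes mm10, Seurat and Bowtie 0.12.2 were used, their roles not being stated. The counting program, droplet chemistry, annotation and use of strand are not given in the sources used here, and the counts were treated as UMI counts.

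Barcodes with at least 500 UMIs, 200 genes and at most 20% mitochondrial UMIs were used. Scrublet marked 0.0619% and 0.0964% of them as doublets, below the 0.5% taken as a working call, so the 4% with the highest doublet scores, 194 and 166, were left out. A cell went to the best of 19 marker lists where at least 3 markers had a UMI and its score was 1.25 times the next. No cell type annotation was used from the authors, so class names are rebuilt. The T cell list was matched for 6 of 8 markers and the endothelial list for 9 of 10.

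Summed UMIs per class and library were turned into CPM (exact Poisson intervals); ratios carry exact conditional binomial and shares exact Clopper-Pearson intervals, all at 95% and for counting error only. Cells differ more than such counting assumes, so the intervals are narrow. A count of 0 was read as up to 3. Ratios needed 20 UMIs in both libraries together. Shares were repeated after thinning to 1000 UMIs, leaving out shallower cells. Besides all 10 members, list genes are named by the largest ratio among those with at least 50 UMIs, at most 3 per list and class. A gene that the rule on like patterns names is not reported here. Members, lists and rules were chosen with earlier results of these data known. Alternatives changed doublet removal, cell filter, gate, clustering, scaling, cell weighting, depth and the UMI minimum. The calculations were tested on simulated data. Promoter sequences are from RefSeq (GRCm38.p6), which matched 9 members in 11 windows, and gene coordinates from GENCODE M21 on GRCm38, the assembly of mm10. Software was scanpy 1.11.5, igraph 0.11.9, scikit-learn 1.9.0, scipy 1.17.1, numpy 2.4.6, pandas 2.3.3 and matplotlib 3.10.9 under Python 3.11.15.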

Additional observations from a re-analysis of the deposited data

Results flagged for a closer look

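For 3 members the highest and the lowest class ratio of yap1 over wild type lay on opposite sides of 1. The counting intervals of both were apart from 1. The Mt1 ratio was 1.42 in monocyte-derived macrophage-like cells and 0.219 in hepatocyte-like cells. The Gpx1 ratio was 1.29 in neutrophil-like cells and 0.794 in hepatocyte-like cells. The Gsr ratio was 1.24 in Kupffer cell-like cells and 0.636 in sinusoidal endothelial cell-like cells. Without the 5 top cells of each library the Kupffer cell-like value was 1.22 (0.979 to 1.53), an interval that includes 1. With 1 library per genotype the difference between classes was not tested in any of these.

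Mt1 UMIs were also found in barcodes that failed the cell filters, at 191 (156 to 231) CPM in the 422 wild-type and 99.2 (80.1 to 122) CPM in the 582 yap1 barcodes. The level in these barcodes, which can hold free RNA and damaged cells, was lower in the yap1 library. Alb was lower there as well, at 749.9 (679 to 826) and 425 (384 to 468) CPM.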

How the results depend on the processing

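Of the 85 ratios, 48 stayed on the same side of 1 under every alternative and 27 moved by more than 1.5 times under at least 1. The number past 1.5-fold, 17, ranged from 12 after thinning to 19. The monocyte-like median log2 ratio of -0.22 became -0.41 after thinning. The Kupffer cell-like median of -0.17 turned to 0.24 after thinning. The neutrophil-like median of 0.16 turned to -0.03 with doublet-scored barcodes kept, -0.09 with a stricter gate, -0.05 with cells weighted equally and -0.19 after thinning. These 2 moved by less than the spread among members, and the macrophage-like and endothelial medians kept their sign. The Kupffer cell-like Mt2 ratio of 0.417 became 1.70 with doublet-scored barcodes kept and 1.35 with graph clusters, and the T cell-like Mt1 ratio of 0.634 became 1.02 with doublet-scored barcodes kept. The conventional dendritic cell 2-like Gclm ratio of 0.577 became 1.29 with a stricter gate. The cause was not tested. The hepatocyte-like Mt1 ratio stayed between 0.164 and 0.236, and the monocyte-derived macrophage-like one between 1.31 and 1.46. Depth limits Nqo1, Srxn1, and Mt2 outside hepatocyte-like and endothelial cells, where a few cells can hold most UMIs. No paired analysis was possible because each genotype has 1 library, and for the same reason no replicate could be left out.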

Other observations

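Classes too small for a comparison also held these genes. Cholangiocyte-like cells, bile duct cells of which 17 were found in the wild-type library, had 759 (629.9 to 906) CPM of Mt1, 274 (199 to 367) CPM of Mt2 and 292 (215 to 389) CPM of Gclm. Mesenchymal cell-like cells of the wild-type library had 487 (392 to 597) CPM of Mt1. Plasma cell-like cells had 356 (293 to 429) CPM of Mt1 in the wild-type and 2444 (2157 to 2758) CPM in the yap1 library, where 1 of 6 cells held 186 of 262 UMIs. The 13 basophil or mast cell-like cells, all from the yap1 library, had 716 (546 to 922) CPM of Gsr, 1730.3 (1460.1 to 2036) CPM of Gpx1 and 0 UMIs of Mt1. Migratory dendritic cell-like cells held 7 and 10 UMIs of Slc7a11, too few for an order, or 41.5 and 59.1 CPM. Cells that were placed in no class had 277 (256 to 299) CPM of Mt1 in the wild-type and 485 (456 to 515) CPM in the yap1 library.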
